A study of Mus musculus with 3 samples.

Results

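A set of 10 genes that carry a cell from G1 into S phase were followed through adult mouse cochlear explants in which doxycycline (Dox) switched on Myc and NICD, the intracellular domain of Notch. They are the D-type cyclins Ccnd1, Ccnd2 and Ccnd3, their kinases Cdk4 and Cdk6, the E-type cyclin Ccne1, the transcription factors E2f1 and E2f2, and the pocket proteins Rb1 and Rbl1, matched by symbol and making 10 of the 31053 genes counted. Summed over all cells, 5 of them, Ccnd1, Cdk4, Cdk6, Ccne1 and E2f1, were higher in Dox cultures, and none was lower by the test. Of all genes tested there, 9.35% were higher and 7.82% lower. Cdk4 and Cdk6 each rose in 3 epithelial cell groups. Ccnd1 rose in 1 of those 3 groups. Rb1 fell in 2 of them. No member passed the test in glia-like or macrophage-like cells, where 7.05% and 0.568% of all genes tested did. In the main fits no member's Dox difference was shown to differ between cell groups.

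In G1, D-type cyclins bind CDK4 or CDK6, and the complexes phosphorylate the retinoblastoma protein RB1 and its relative p107, which Rbl1 encodes. Phosphorylated pocket proteins release E2F factors, which switch on cyclin E and the genes of DNA replication, and cyclin E with CDK2 completes the phosphorylation. Hair cells and supporting cells of the adult mammalian cochlea are post-mitotic, and Rb1 is among the genes that hold the sensory epithelium out of the cell cycle in the mouse.

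Explants came from mice of 4 to 6 weeks. The mice of all 3 libraries carried rtTA, the Dox-dependent activator, together with tet-on Myc and tet-on NICD. Dox cultures received 2 µg/ml for 4 days and made up 2 libraries, Dox replicate 1 and Dox replicate 2. Control cultures received sterile water and made up 1 library. Each library pooled 4 cultures, the labels do not say what promoter drives rtTA, and no culture without the transgenes received Dox, so effects of the drug and of the transgenes cannot be told apart. Sensory epithelium was dissected and dissociated with trypsin, and transcripts were counted as unique molecular identifiers (UMIs) with 10x 3′ chemistry.

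The libraries held 20309102 UMIs in Dox replicate 1, 33385927 in Dox replicate 2 and 5436731 in the control, and 636, 997 and 363 cells were kept, with medians of 16724.5, 27579 and 6887 UMIs. Notch1, whose intracellular domain the transgene encodes, had 456 and 354 TMM-scaled CPM (UMI counts on a common library scale) in the Dox libraries and 38.1 CPM in the control, and Myc had 64.4 and 57.2 CPM with Dox and 33.0 CPM in the control. Both rose (edgeR quasi-likelihood test, Benjamini-Hochberg adjusted p of 0.0169 and 0.0422), though 3′ tags may not tell transgene from endogenous transcripts. Across all cells, 2650 of 15426 genes tested passed, 1443 higher and 1207 lower, but with total count scaling, which moved the median of all genes by -0.30 on the log2 scale, the split was 881 higher and 2028 lower. Under that scaling the split was also lower-heavy in supporting cell-like cells (304 higher and 873 lower, against 377 and 164 with TMM), glia-like cells (273 and 617, against 256 and 281), Vmo1 Otx2 cells (1087 and 1641, against 1378 and 1269) and Epyc Aqp4 cells (281 and 447, against 881 and 853). The libraries shared 125 cell barcodes. In every case 1 library's copy was far deeper, by a median of 155 times, and the shallow copies made up 6.45%, 7.22% and 22.0% of kept cells in Dox replicate 1, Dox replicate 2 and the control but 0.167%, 0.171% and 1.15% of their UMIs. They were kept in the tests below and left out of shares of cells. The p-values rest on the spread between the 2 Dox libraries (1 residual degree of freedom), which may be partly technical, and the control is assumed to vary like them.

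Cells were clustered with the 10 members and the cell cycle gene lists left out. Supporting cell-like cells (57, 28 and 28 in Dox replicate 1, Dox replicate 2 and the control) carried 14, 14 and 13 of 14 supporting cell markers, and their summed marker level was 2213, 2574 and 3542 CPM, against a summed macrophage marker level of 8.59, 11.4 and 15.4 CPM. Glia-like (38, 50 and 28 cells) and macrophage-like cells (49, 29 and 23 cells) were also compared. Another 2 epithelial clusters had fewer than 20 control cells and were added after the cells were counted. They are named by leading genes, a Vmo1 Otx2 cluster of 33, 139 and 16 cells and an Epyc Aqp4 cluster of 54, 83 and 12 cells. All 14 epithelium markers were counted in both, with summed levels of 4726, 6239 and 8229 CPM in the Vmo1 Otx2 cluster and 5219, 5346 and 6873 CPM in the Epyc Aqp4 cluster. Other lists moved with Dox in these clusters, namely strial marginal cell markers in Vmo1 Otx2 cells (222 and 196 CPM with Dox, 768 in the control) and fibroblast and supporting cell markers in Epyc Aqp4 cells (257 and 407 CPM with Dox and 1254 in the control, and 566 and 501 CPM with Dox and 1414 in the control). Their part in the results below was not tested. Atoh1, the hair cell determinant, had 0 UMIs in every library. The 3 deepest cells held 45.7%, 34.4% and 47.5% of the control UMIs in supporting cell-like, Vmo1 Otx2 and Epyc Aqp4 cells. Of the 16 control cells of the Vmo1 Otx2 cluster, 14 carry barcodes found in other libraries, each as the deep copy. With all shared barcodes left out, 2 control cells remained there and 7 of 12 in the Epyc Aqp4 cluster. Both fall below the minimum of 10 cells, so neither cluster was tested that way. Because UMIs are summed per group, fewer cells in which a gene is on and less RNA of that gene per cell cannot be told apart from a fold change alone.

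Promoter sequences show which members carry the letters that MYC and E2F factors are known to bind. RefSeq sequence (GRCm38.p6, 250 bases before to 50 after the start) was given for 7 of the 10 members, in 9 promoters. Ccnd1, Ccnd2 and Rb1 had none. The E2f1 sequence (chr2:154569377-154569676, minus strand) lies inside the gene, whose 5′ end is at 154569892. The bases before that end were therefore not searched. The Cdk6 sequence also lies inside its gene, which starts at 3341485. The E-box CACGTG, which MYC binds with MAX, was searched on both strands, where it reads the same, and the E2F sites TTTCGCGC and TTTGGCGC were searched on both strands. The E-box occurred in the promoters of Cdk4 and Cdk6, and an E2F site in those of E2f2 and Rbl1, and these 4 are printed 5′ to 3′ with the matches in capitals.
Cdk4 promoter, chr10:127063285-127063584, plus strand: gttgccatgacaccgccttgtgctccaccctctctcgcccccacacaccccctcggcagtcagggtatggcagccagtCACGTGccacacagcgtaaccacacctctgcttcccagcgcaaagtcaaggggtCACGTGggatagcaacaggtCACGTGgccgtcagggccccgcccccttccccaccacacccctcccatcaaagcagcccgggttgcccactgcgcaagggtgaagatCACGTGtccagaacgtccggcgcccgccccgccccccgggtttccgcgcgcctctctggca
Cdk6 promoter, chr5:3343643-3343942, plus strand: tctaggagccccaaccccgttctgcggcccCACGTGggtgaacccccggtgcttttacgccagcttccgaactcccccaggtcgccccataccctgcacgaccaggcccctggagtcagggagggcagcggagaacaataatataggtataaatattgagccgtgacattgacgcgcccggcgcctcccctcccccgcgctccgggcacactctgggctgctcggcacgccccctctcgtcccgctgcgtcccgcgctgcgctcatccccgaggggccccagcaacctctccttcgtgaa
E2f2 promoter, chr4:136172024-136172323, plus strand: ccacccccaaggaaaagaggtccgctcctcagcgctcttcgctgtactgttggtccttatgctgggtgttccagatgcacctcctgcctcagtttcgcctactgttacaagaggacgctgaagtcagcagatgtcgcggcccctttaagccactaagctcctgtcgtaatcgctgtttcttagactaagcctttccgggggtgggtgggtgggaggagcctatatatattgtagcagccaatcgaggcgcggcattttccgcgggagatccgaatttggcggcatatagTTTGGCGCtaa
Rbl1 promoter, chr2:157204485-157204784, minus strand: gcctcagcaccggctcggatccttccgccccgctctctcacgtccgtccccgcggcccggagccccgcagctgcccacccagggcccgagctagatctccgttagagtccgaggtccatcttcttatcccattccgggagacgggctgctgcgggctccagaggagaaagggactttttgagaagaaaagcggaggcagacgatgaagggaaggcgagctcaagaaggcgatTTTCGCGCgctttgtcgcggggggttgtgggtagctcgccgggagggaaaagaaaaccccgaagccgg
The Cdk4 promoter held 4 E-boxes, whose first bases lie at -172, -118, -98 and -11 from the start, and the Cdk6 promoter held 1, at -220. Among 32851 mouse promoters of the same length, 7.15% held the E-box at least once and 8 promoters (0.0244%) held it 4 or more times. An E2F site lay at 40 in E2f2 and at -18 in Rbl1, and 0.813% of promoters held one. A match describes the letters and is no evidence of binding.

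The D-type cyclins differed in the cell types that held them. On the plain CPM scale, without TMM scaling, Ccnd1, the main D-type cyclin of many epithelia, was high in epithelial clusters. In Dox replicate 1 and Dox replicate 2 it reached 672 and 521 CPM in a cluster led by Gabrp and Otoa, 462 and 449 CPM in the Epyc Aqp4 cluster and 345 and 382 CPM in the Vmo1 Otx2 cluster. It was 4.52 and 23.2 CPM in the pericyte-like cells of the same libraries. In Dox replicate 1 the 95% counting intervals of these 3 epithelial clusters did not overlap, at 644 to 701, 436 to 489 and 321 to 371 CPM. Unnamed clusters 11 and 1 stood between the first and second, at 611 and 578 CPM, with intervals that overlap each other. Supporting cell-like cells had 137, 51.3 and 11.6 CPM in Dox replicate 1, Dox replicate 2 and the control. Fibroblast-like cells had 0 CPM in the 13 cells of Dox replicate 1, 70.7 CPM in Dox replicate 2 and 188 CPM in the control. The 70 control cells of unnamed cluster 5 had 214 CPM on 21 UMIs, with a counting interval of 132 to 327 CPM. Ccnd1 (chr7:144929931-144939925, minus strand, GRCm38) overlaps the opposite-strand gene Oraov1 at its 3′ end, whose UMIs came to 6.78% and 5.52% of those of Ccnd1 with Dox and 14.4% in the control.

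Ccnd2, another D-type cyclin, ran differently. It had 130 and 94.0 CPM in pericyte-like cells with Dox. Fibroblast-like cells had 103, 215 and 238 CPM, and glia-like cells 222, 36.2 and 60.5 CPM, in Dox replicate 1, Dox replicate 2 and the control. In 14 control cells like melanocytes or intermediate cells it had 394 CPM, and in the control cells of unnamed cluster 10 it had 194 CPM. Among epithelial clusters it was well counted in the Vmo1 Otx2 cluster, at 128, 203 and 146 CPM in Dox replicate 1, Dox replicate 2 and the control. In the Epyc Aqp4 cluster it had 11, 0 and 0 UMIs, and in supporting cell-like cells 0, 1 and 0 UMIs. Within the Vmo1 Otx2 cluster, 57.6%, 73.4% and 56.2% of cells (median depths 60337, 41375 and 51619.5 UMIs) held both transcripts, while in the Epyc Aqp4 cluster 88.0% and 93.5% of Dox cells and 3 of 12 control cells held Ccnd1 without Ccnd2. For background, 11.0% and 14.5% of pericyte-like cells with Dox (median depths 38587 and 27033.5 UMIs) held any Ccnd1. The clusters were built from other genes of these same cells, so the order is a description.

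**Figure D1:**
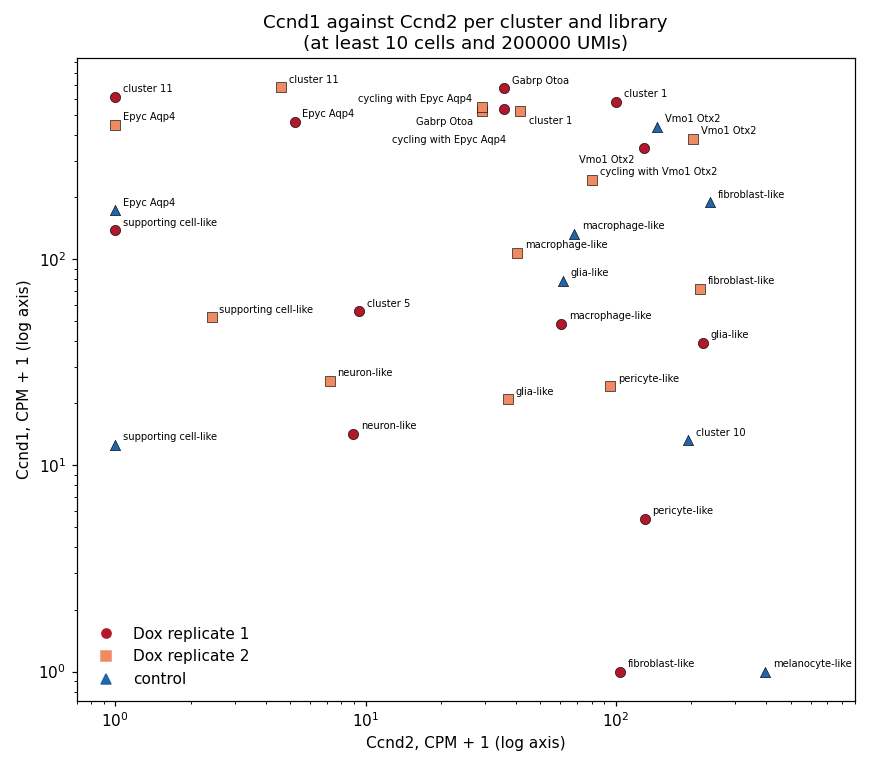
Ccnd1 (vertical axis) against Ccnd2 (horizontal axis) in CPM + 1 on log axes, 1 point for each of 34 combinations of cluster and library with at least 10 cells and 200000 UMIs, marked by library. Epyc Aqp4 and supporting cell-like points lie at the left edge with almost no Ccnd2, Vmo1 Otx2 points lie at the upper right with both cyclins, and pericyte-like points lie at the lower right.

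Ccnd3, also a D-type cyclin, was found in every cluster of at least 20 cells and enough UMIs to rank. Its plain level ran from 25.9 CPM in glia-like cells to 71.9 CPM in Dox replicate 1 and from 24.1 to 82.9 CPM in Dox replicate 2, and neighbours in that order had overlapping counting intervals. In the control it ran from 23.2 CPM in supporting cell-like cells to 76.8 CPM. It overlaps Bysl at its 3′ end, whose UMIs came to 36.5% and 44.8% of those of Ccnd3 with Dox and 22.6% in the control. Over 33 profiles of cluster and library, which share their libraries and depths, Spearman's rho with Ccnd1 was -0.28 for Ccnd2 and -0.04 for Ccnd3.

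Over all cells, Ccnd1 had 336 and 370 scaled CPM in the Dox libraries and 122 in the control. Both Dox values stand well above the control, a log2 difference of 1.53 (SE 0.15), with an adjusted p of 0.0207. Among all genes tested over all cells 17.2% were called, 9.35% higher and 7.82% lower with Dox, against 5 of 10 members higher and 0 lower. Ccnd2 had 74.2 and 101 scaled CPM with Dox and 120 in the control, a difference of -0.45 (adjusted p 0.234). Ccnd3 had 58.0 and 58.2 scaled CPM with Dox and 62.0 in the control, a difference of -0.09 (adjusted p 0.670). Neither of these 2 cyclins passed. These values mix cell types whose shares differ between libraries. Unnamed cluster 10 held 91 of the 363 control cells, with 1719063 of their 5304447 UMIs, and 1 cell of each Dox library. It had 12.2 plain CPM of Ccnd1, 7.56 of Cdk6 and 2.33 of Ccne1, against 140, 24.9 and 6.98 over all control cells. Its Cdk4 and E2f1, 134 and 9.89 CPM, stood near the 125 and 8.48 CPM of all control cells. It held 333 of the 728 control Ccnd2 UMIs. The part of that mix in each difference was not tested.

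Epyc Aqp4 cells, in which 15.7% of 11062 genes were called (7.96% higher, 7.71% lower with Dox), had 3 of 8 members tested higher and 1 lower. Ccnd1 there had 471 and 470 scaled CPM with Dox and 162 in the control. The Dox libraries agree closely and both lie far above the control, by 1.54 on the log2 scale (SE 0.22, adjusted p 7.0e-05). A single control cell held 50 of the 72 control UMIs of Ccnd1. Without it the control had 62.2 plain CPM and the difference was 3.00 (adjusted p 3.1e-07). The share of cells with a Ccnd1 UMI was 94.0% and 93.5% with Dox and 3 of 12 cells in the control, at median depths of 47616.5, 34921 and 31460 UMIs, and after thinning every cell to 1000 UMIs it was 34.0% and 35.1% with Dox and 8.33% in the control.

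Vmo1 Otx2 cells, in which 24.2% of 10917 genes were called (12.6% higher, 11.6% lower with Dox), had 3 of 10 members higher and 1 lower. Ccnd1 there had 353 and 403 scaled CPM with Dox and 411 in the control. The control lies just above both Dox libraries, and the difference of -0.12 did not pass (SE 0.15, adjusted p 0.610). With every cell thinned to 1000 UMIs, Ccnd1 was called lower with Dox in this cluster, at a log2 difference of -2.54 (adjusted p 4.6e-10) on 10 and 54 UMIs with Dox and 42 in the control, and with the mean of per-cell CPM the difference was -3.10, without a test. A single control cell of 3302 UMIs held 145 of the 387 control UMIs. Both the thinned value and the mean of per-cell CPM include that cell and weigh every cell alike whatever its depth. A shallow cell with 145 Ccnd1 UMIs among 3302 therefore counts for more in them than in the main sum. Neither value was computed without that cell, so neither shows a fall of Ccnd1 across the cluster. In the main fit without that cell the control had 274 plain CPM and the Dox difference was 0.55 (SE 0.16), with an adjusted p just above the threshold of 0.05. Whether the Ccnd1 differences of the Vmo1 Otx2 and Epyc Aqp4 clusters differ was tested in 1 model, which gave a difference of -1.68 between them (adjusted p 0.679), where 0.0262% of genes passed.

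In supporting cell-like cells, where 6.51% of 8312 genes were called (4.54% higher, 1.97% lower with Dox), 5 members had enough counts to be tested and 3 rose. Ccnd1 was counted 271 and 36 times with Dox and 3 times in the control, or 160 and 57.1 scaled CPM with Dox and 9.44 in the control. Both Dox libraries lie above the control, but they differ from each other by more than 2 times. The ratio of Dox to control rates was 9.89 with a 95% counting interval of 3.35 to 48.2, and the edgeR test gave 3.59 on the log2 scale (SE 0.93, adjusted p 0.0530), which misses the threshold. With the shallow copies of shared barcodes left out it passed, at 4.14 (adjusted p 0.0127). With each library clustered alone it turned, to -0.37 (adjusted p 0.849), on 274 and 52 UMIs with Dox and 105 in the control. The control group was then 37 cells with 793764 UMIs, against 28 cells with 259140 UMIs in the main fit. The same 37 cells were also the control group of the Epyc Aqp4 cluster in that setting, so the 2 groups were not separated in the control. Ccnd3 rose, with 79.5 and 71.4 scaled CPM with Dox and 18.9 in the control, a difference of 2.00 (SE 0.47, adjusted p 0.0369) that rests on 6 control UMIs. By DESeq2's Wald test Ccnd1 was the member that passed in these cells (3.52, adjusted p 0.0239), and Ccnd3, Cdk4 and Cdk6 did not (adjusted p 0.229, 0.0535 and 0.0740). Of the supporting cell-like cells, 56.1% and 46.4% with Dox and 46.4% in the control held little Malat1, a nuclear transcript, at under 10% of their library's median share. Without them no member passed (Cdk4 1.58, adjusted p 0.0590, Ccnd3 2.39, adjusted p 0.0741, Cdk6 3.09, adjusted p 0.0922), and their part in these results was not tested. Of the Ccnd1 UMIs of Dox replicate 2, 22 of 36 came from 1 cell. In Dox replicate 1, 9 of 56 cells with mitotic transcripts held 191 of the 271 Ccnd1 UMIs, and the cells without such transcripts had 94.2 and 23.5 plain CPM with Dox and 7.89 in the control. With all barcodes shared between libraries left out, no member and no other gene passed in supporting cell-like cells (1188 genes had an unadjusted p under 0.05). Their differences were then similar in size (Cdk4 1.78, adjusted p 0.216, Ccnd3 1.75, adjusted p 0.299, and Cdk6 2.63, adjusted p 0.300). Leaving those barcodes out kept 48 of 57 such cells of Dox replicate 1 but 701561 of their 1978877 UMIs. Much of that library's sum thus came from few deep cells.

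No member passed in glia-like cells, at a background of 7.05% of 7618 genes called (3.36% higher, 3.69% lower with Dox). Ccnd1 had 42.9 and 20.8 scaled CPM with Dox and 71.1 in the control (log2 -1.10, adjusted p 0.166). Ccnd3 had 29.1 and 32.1 scaled CPM with Dox and 64.9 in the control (log2 -1.09, adjusted p 0.142). Ccnd2 had 249.2 and 37.7 scaled CPM with Dox and 55.7 in the control, so that the Dox libraries lie on either side of the control. With 0 of 6 members called by edgeR, 2 had an unadjusted p under 0.05, and DESeq2 called 0.

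The catalytic partners of the D-type cyclins are Cdk4 and Cdk6, and both rose in all 3 epithelial groups. Over all cells Cdk4 had 243 and 292 scaled CPM with Dox and 110 in the control, a difference of 1.29 (SE 0.18, adjusted p 0.0271). Vmo1 Otx2 cells had 294 and 274 scaled CPM with Dox and 90.3 in the control (1.65, SE 0.18, adjusted p 0.0015). Epyc Aqp4 cells had 233 and 270 scaled CPM with Dox and 92.4 in the control (1.44, SE 0.25, adjusted p 0.0005), but with every cell thinned to 1000 UMIs the difference in Epyc Aqp4 cells was 0.10 (SE 0.96, adjusted p 0.962), on 6 and 25 Cdk4 UMIs with Dox and 3 in the control. Before thinning, in each of these groups the 2 Dox libraries lie close together and far from the control. Supporting cell-like cells had 180 and 193 scaled CPM of Cdk4 with Dox and 56.6 in the control, and Cdk4 rose there, with a log2 difference of 1.71 (SE 0.32, adjusted p 0.0132) that did not pass without the cells of little Malat1 or with DESeq2 (adjusted p 0.0590 and 0.0535). In glia-like cells the values overlapped, at 181 and 142 scaled CPM with Dox and 148 in the control (0.13, adjusted p 0.858). In macrophage-like cells they also overlapped, at 116 and 198 with Dox and 181 in the control (-0.20, adjusted p 0.995).

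Cdk4 was present in every ranked cluster, and the control epithelial groups had the lowest levels among the groups compared. On the plain scale the control had 69.5 CPM in supporting cell-like cells (95% counting interval 41.2 to 110), against 161 CPM in glia-like and 182 CPM in macrophage-like control cells. The share of supporting cell-like cells with a Cdk4 UMI was 71.4% and 76.0% with Dox (median depths 8584.5 and 17813 UMIs) and 30.4% in the control (6156 UMIs). After thinning, 9 of 50 and 3 of 25 Dox cells and 2 of 20 control cells held one, so the difference in shares was not detectable at equal depth. The 3′ end of Cdk4 (chr10:127063534-127067920, plus strand, GRCm38) overlaps Tspan31 on the opposite strand, and the sources used here do not say whether counting used strand. Tspan31 UMIs came to 25.8% and 20.5% of those of Cdk4 with Dox and 62.7% in the control. Without strand, reads of the 2 genes cannot be told apart.

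Cdk6, the second D-cyclin kinase, was low in control epithelium. Epyc Aqp4 cells had 189 and 158 UMIs with Dox and 2 in the control, a ratio of rates of 13.3 with a counting interval of 3.66 to 111. The fit gave 3.85 (SE 0.58, adjusted p 0.0001). Vmo1 Otx2 cells had 82.6 and 110 scaled CPM with Dox and 30.8 in the control (1.66, SE 0.28, adjusted p 0.0079). In supporting cell-like cells it was counted 182 and 33 times with Dox and 3 times in the control, a ratio of 6.93 with an interval of 2.34 to 33.9, and the difference of 3.13 passed (SE 0.76, adjusted p 0.0428). The Dox libraries exceed the control in all 3 groups. Over all cells Cdk6 had 65.5 and 86.5 scaled CPM with Dox and 21.8 in the control (1.81, adjusted p 0.0272).

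In macrophage-like cells both Dox libraries lay below the control. Cdk6 had 50.7 and 49.8 scaled CPM there with Dox and 142 in the control, a difference of -1.49 that did not pass (SE 0.51, adjusted p 0.364). One control cell of 85131 UMIs held 32 of the 51 control UMIs, and without it the control had 69.8 plain CPM. In that class 0.568% of 7745 genes were called, 0.245% higher and 0.323% lower with Dox. By edgeR 0 of 10 members passed, 1 had an unadjusted p under 0.05, and DESeq2 called 0.

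**Figure D2:**
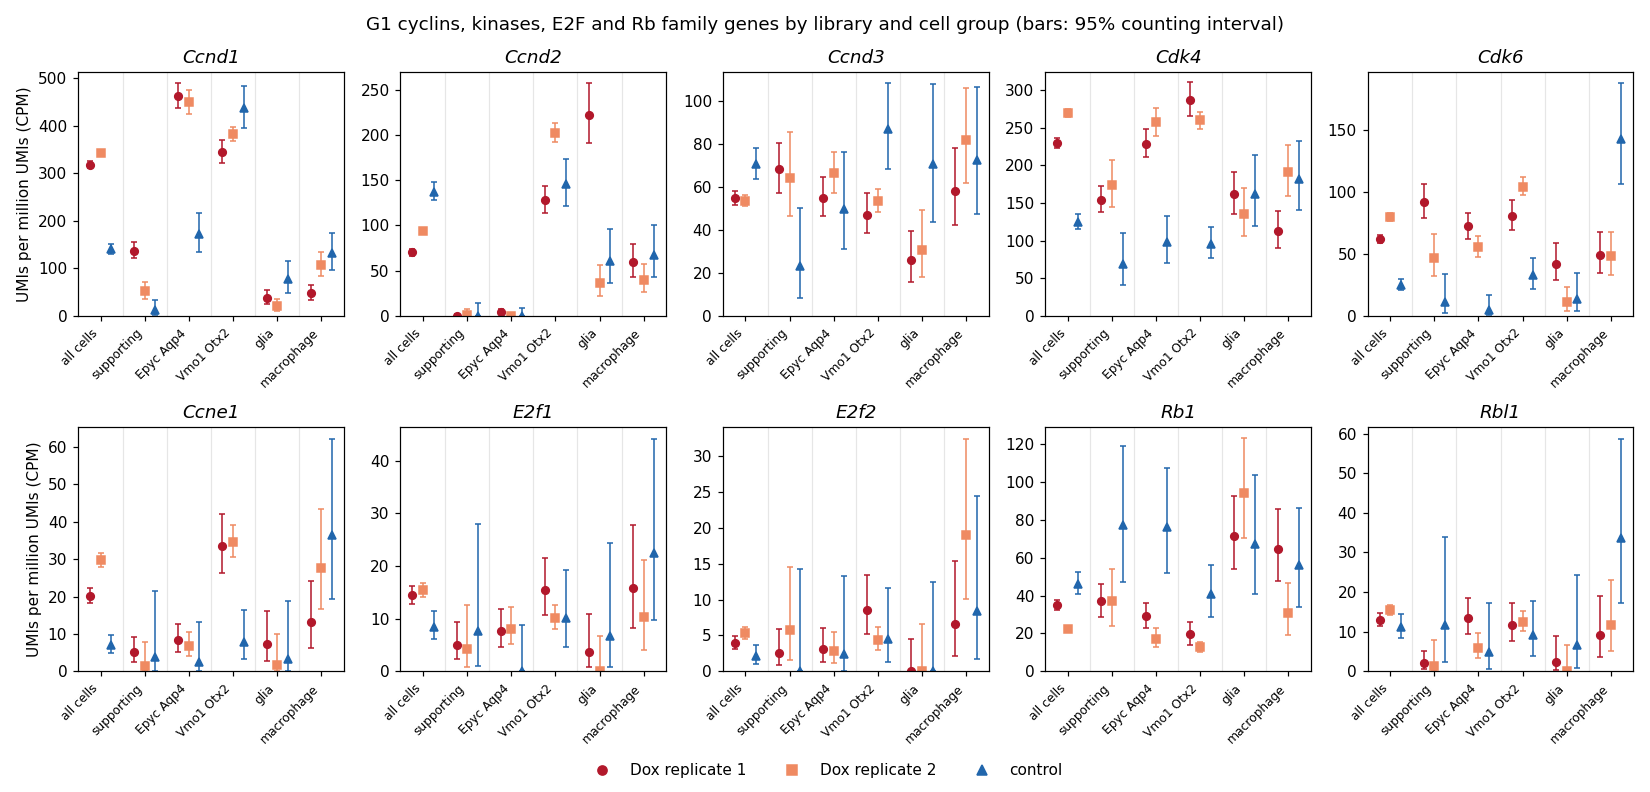
Plain CPM (vertical axis) of each gene in all cells and 5 cell groups (horizontal axis), with the 2 Dox libraries left of the control and bars for the 95% counting interval. Cdk4 and Cdk6 stand higher in both Dox libraries than in the control in the supporting, Epyc Aqp4 and Vmo1 Otx2 groups, and Rb1 stands lower in the same groups.

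Ccne1, cyclin E1, which acts with CDK2 after the restriction point, had 21.4 and 32.3 scaled CPM over all cells with Dox and 6.10 in the control. Both Dox libraries exceed the control more than 3 times, and the difference of 2.14 passed (SE 0.38, adjusted p 0.0358). Vmo1 Otx2 cells had 34.4 and 36.6 scaled CPM with Dox and 7.44 in the control, a difference of 2.26 (SE 0.36, adjusted p 0.0063) on 7 control UMIs. Epyc Aqp4 cells had 22 and 19 UMIs with Dox and 1 in the control, with a ratio of 3.15 and an interval of 0.535 to 127 that holds 1. Supporting cell-like cells had 10 and 1 UMIs with Dox and 1 in the control, too few to test. Of the genes whose cluster profile was most like that of Ccne1, the 3 nearest were Uhrf1 (rho 0.86), Rrm2 (0.86) and Hells (0.84) over 33 profiles, all S phase genes.

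E2f1 and E2f2, activators of S phase genes, were scarce. Over all cells E2f1 had 15.2 and 16.6 scaled CPM with Dox and 7.42 in the control, a difference of 1.10 (SE 0.23) with an adjusted p of 0.0489, close to the threshold. It passed in 4 of the 9 alternatives in which it was tested. E2f2 had 4.23 and 5.77 scaled CPM with Dox and 1.81 in the control, on 11 control UMIs, and its difference of 1.46 did not pass (adjusted p 0.103). Within groups neither was called. In the Epyc Aqp4 cluster E2f1 was counted 20 and 23 times with Dox and 0 times in 420215 control UMIs. Set against a limit of 3 control UMIs over the group, the Dox rate is 1.10-fold higher. The exact 95% interval of the control, 0 to 8.78 plain CPM, holds both Dox levels, 7.64 and 8.07 CPM. No minimum rise follows from these counts.

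Rb1, the retinoblastoma gene, was the one member that fell. Epyc Aqp4 cells had 29.6 and 18.0 scaled CPM with Dox and 72.1 in the control, a difference of -1.60 (SE 0.36, adjusted p 0.0046). Vmo1 Otx2 cells had 19.97 and 13.3 scaled CPM with Dox and 38.2 in the control, a difference of -1.27 (SE 0.36, adjusted p 0.0417). Both Dox libraries lie below the control in each cluster. Neither fall passed with DESeq2's Wald test (adjusted p 0.123 and 0.352). In supporting cell-like cells Rb1 had 43.0 and 41.2 scaled CPM with Dox and 62.9 in the control (-0.57, adjusted p 0.423). Over all cells it had 36.9 and 23.98 scaled CPM with Dox and 40.4 in the control (-0.41, adjusted p 0.386). Glia-like cells, which had the most Rb1 in both Dox libraries among ranked clusters, had 80.3 and 98.1 scaled CPM with Dox and 61.9 in the control (0.52, adjusted p 0.476). The 3′ end of Rb1 (chr14:73183673-73325822, minus strand) overlaps Rcbtb2 on the opposite strand, whose UMIs came to 78.0% and 91.4% of those of Rb1 with Dox and 51.8% in the control.

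Rbl1, which encodes the pocket protein p107, had 13.7 and 16.7 scaled CPM over all cells with Dox and 9.72 in the control, and its difference of 0.65 did not pass (adjusted p 0.151). Its difference was 0.58 (adjusted p 0.391) in Vmo1 Otx2 cells and 1.12 (adjusted p 0.502) in Epyc Aqp4 cells, there on 2 control UMIs.

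**Figure D3:**
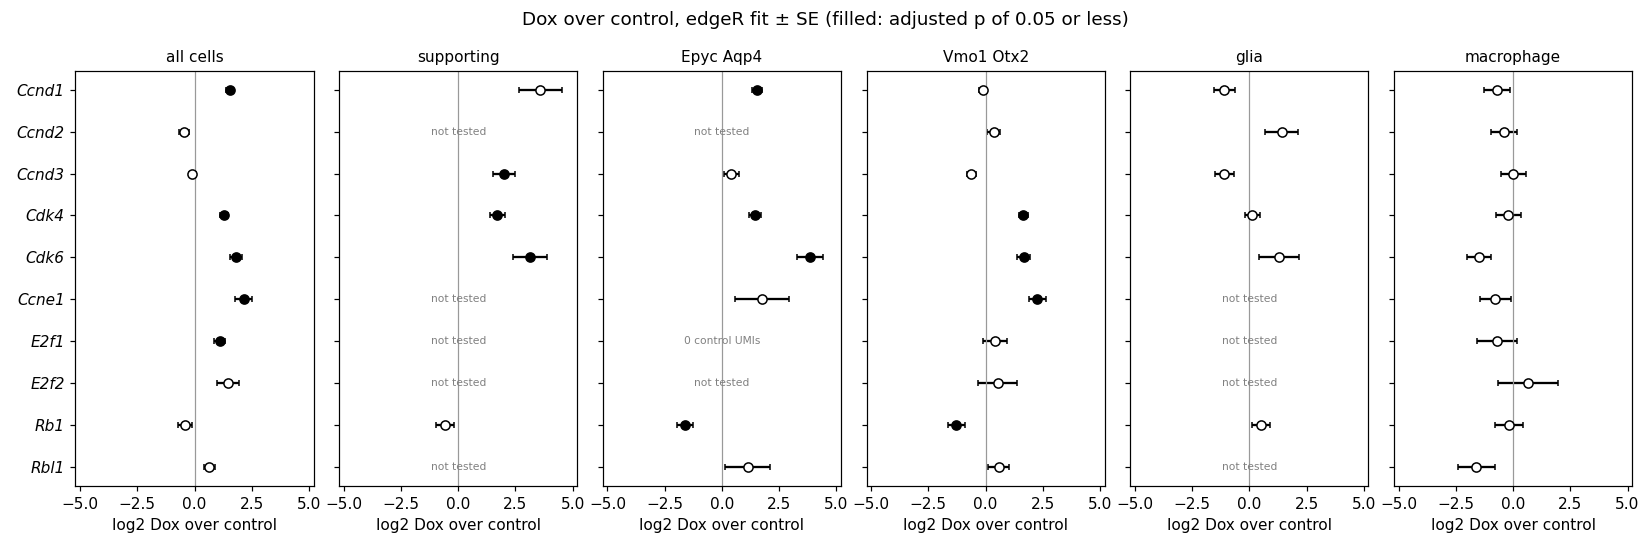
Log2 Dox over control (horizontal axis) with the SE of the fit for each gene (rows) in all cells and 5 groups (panels), filled where the adjusted p was 0.05 or less. Cdk4 and Cdk6 are filled on the right of 0 in all cells and the 3 epithelial groups, Rb1 is filled on the left in Epyc Aqp4 and Vmo1 Otx2 cells, and no point is filled in glia-like or macrophage-like cells.

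Whether the Dox difference itself differed between cell groups was tested in 1 model over supporting cell-like, glia-like and macrophage-like sums. That model held no term for library, so the sums of 1 library entered as independent samples although they share its handling. It left 3 residual degrees of freedom, and the model over 5 groups, built the same way, left 5. No gene of 10649 was called in either contrast by edgeR (a background of 0%), 586 genes had an unadjusted p under 0.05 in the contrast with glia-like cells and 888 in that with macrophage-like cells, and DESeq2 called 0. Supporting cell-like minus glia-like differences were 4.64 for Ccnd1 (unadjusted p 0.0071), 3.05 for Ccnd3 (0.0010) and 1.56 for Cdk4 (0.0252). In a model over all 5 groups, the mean difference of the 3 epithelial groups minus that of glia-like and macrophage-like cells was 1.58 for Cdk4 (SE 0.30, adjusted p 0.0945), and 4 of 11465 genes (0.0349%) passed. Among the 10 pairs of groups in that model no member passed, and between 0% and 0.131% of genes did (0.00872% for glia-like minus macrophage-like and for macrophage-like minus Vmo1 Otx2 cells, 0.0262% for glia-like minus Epyc Aqp4 cells). The lowest adjusted p of a member, 0.126, was that of Cdk6 between macrophage-like and Vmo1 Otx2 cells, a difference of -3.05. The members' Dox differences were not shown to differ between cell groups.

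Cells with mitotic transcripts were defined by UMIs of at least 4 of 20 G2/M genes, and are called mitotic here. The other cells, also called non-mitotic, may hold UMIs of fewer than 4 of these genes and may be in other phases of the cycle. They made up 38.7% of cells in Dox replicate 1, 54.6% in Dox replicate 2 and 5.30% in the control (15 of 283 cells). With their Dox-only cycling clusters joined, the Epyc Aqp4 cells were mitotic in 68.7% and 68.9% with Dox and 8.33% (1 of 12) in the control, and the Vmo1 Otx2 cells in 71.8% and 74.9% with Dox and 6.25% (1 of 16) in the control. Supporting cell-like cells were mitotic in 16.1% and 4.00% with Dox, and in 0 of 23 cells in the control. Mitotic cells were deeper, with medians of 48131.5 and 43132 UMIs in Dox replicate 1 and Dox replicate 2, against 8957 and 11961.5 UMIs in the other cells, and depth raises the chance of meeting the rule. After thinning to 1000 UMIs, 37.4% and 45.2% of Dox cells and 7.28% of control cells held any G2/M UMI.

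Among Dox cells of the Epyc Aqp4 clusters, mitotic cells had more Cdk4, at 297 and 334 plain CPM, than the other cells, at 150 and 195 CPM. The other cells still exceeded the 89.3 CPM of the non-mitotic control cells. For Vmo1 Otx2 cells the corresponding Cdk4 levels were 296 and 292 CPM in mitotic Dox cells and 216 and 221 CPM in the other Dox cells, against 82.8 CPM in non-mitotic control cells. Cdk6 in those other cells was 95.8 and 83.7 CPM with Dox and 30.2 CPM in the control. Between cells below the mitotic rule, Cdk4 was thus higher with Dox in both clusters and Cdk6 in Vmo1 Otx2 cells, as a description without a test. Whether those cells were cycling was not tested.

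Members differed in how they followed mitosis. Over all cells of Dox replicate 1 and Dox replicate 2, E2f1 had 18.7 and 18.8 plain CPM in mitotic cells, and Rbl1 had 16.5 and 18.8 CPM there. In the other cells E2f1 had 5.26 and 2.77 CPM, and Rbl1 had 5.57 and 3.33 CPM. Ccnd2 ran the opposite way, at 47.9 and 88.2 CPM in mitotic cells and 116 and 114 CPM in the others, and within the Vmo1 Otx2 clusters at 95.2 and 146 CPM in mitotic cells and 338 and 254 CPM in the others. In the Epyc Aqp4 clusters, whose other cells had nearly none of it, Ccnd2 had 73 and 110 UMIs in mitotic Dox cells and 2 and 0 UMIs in the others. These UMIs came from few cells. Of the cycling cluster's cells, 5 of 17 and 7 of 55 held Ccnd2, each together with Ccnd1. In the Epyc Aqp4 cluster itself 3 of 50 and 0 of 77 Dox cells held both. Joined with its cycling cluster, the Epyc Aqp4 group had 6 members higher, Ccnd1, Ccnd2, Cdk4, Cdk6, E2f1 and Rbl1, and Rb1 lower with Dox, of 10 tested. In that joined fit 18.8% of 11847 genes were called, 11.1% higher and 7.74% lower with Dox, and the rise of Ccnd2 stood against 0 control UMIs. Ccnd1 had no common direction within the Epyc Aqp4 clusters, with 451 and 545 CPM in mitotic Dox cells and 677 and 329 CPM in the others. Rb1 was close in both kinds of cell there, at 28.8 and 19.1 CPM in mitotic and 23.4 and 16.9 CPM in other Dox cells.

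**Figure D4:**
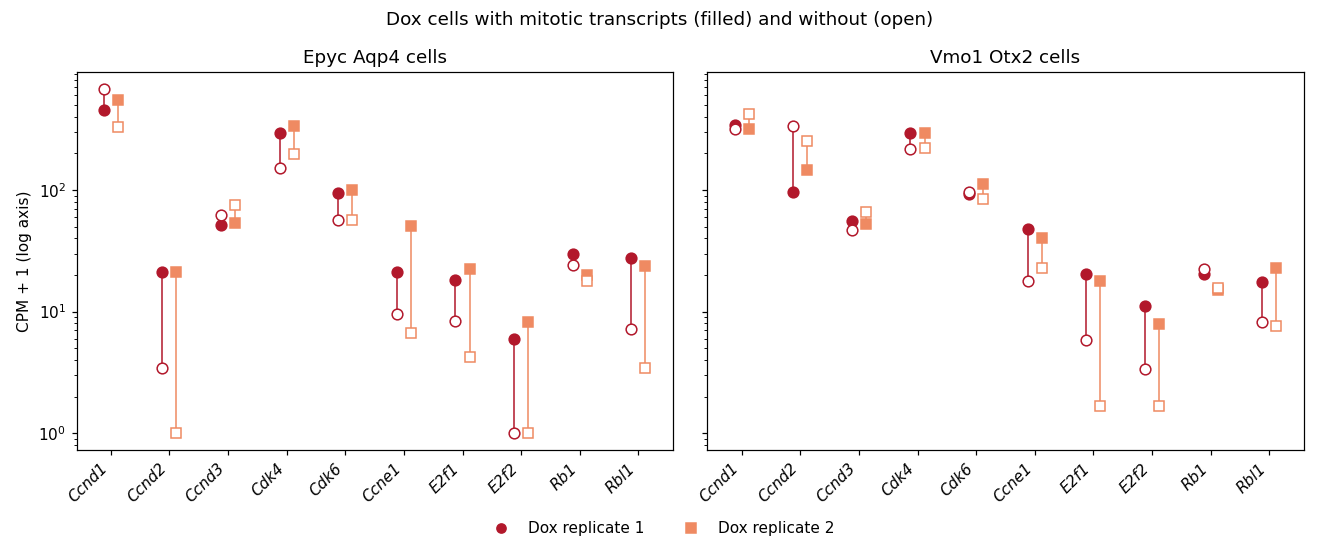
Plain CPM + 1 (log axis) of each gene in Dox cells called mitotic (filled) and in the other Dox cells (open). Points are for the Epyc Aqp4 and Vmo1 Otx2 clusters joined with their cycling clusters, 1 pair per Dox library. E2f1, E2f2, Ccne1 and Rbl1 are higher in the mitotic cells of both libraries, and Ccnd2 in Vmo1 Otx2 cells is lower.

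Beyond the members, of 22 other G1/S genes tested over all cells, 9 rose and 0 fell, with a median log2 difference of 0.64 against -0.01 for all genes. Of all genes tested over all cells, 9.35% rose and 7.82% fell. The smallest p-values belonged to E2f3 (1.85), Cks1b, which helps SCF-SKP2 target p27 (1.93), Ccne2 (2.10) and Tfdp1, the E2F dimer partner (1.66). Of 30 S phase genes, most of them E2F targets, 29 rose and 0 fell, with a median of 1.89, with the smallest p-values in Dut, Hells, Tk1 and Cdt1. All 20 G2/M genes rose, with a median of 1.65. Of 7 CDK inhibitor genes 0 rose and 1 fell, Cdkn1c, which encodes p57, at 3.02 and 4.63 scaled CPM with Dox and 20.3 in the control.

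Fewer genes of these lists had enough counts within groups. Among supporting cell-like cells 3 of 15 other G1/S genes tested rose, Cdc37 (1.48), the chaperone that loads CDK4 onto HSP90, E2f3 (counted 77 and 22 times with Dox and 1 time in the control) and Cks1b (2.28). There 1 of 12 S phase genes rose (Dut, 2.84) and 2 of 11 G2/M genes (Mki67, with 70 and 18 UMIs with Dox and 0 in the control, and Cenpf), and 0 of 4 CDK inhibitor genes passed. For Vmo1 Otx2 cells 8 of 22 other G1/S genes rose, among them Cks1b (2.25), Tfdp1 (1.91), Tfdp2 (2.24) and Cdc25a (1.57), as did 17 of 30 S phase and 20 of 20 G2/M genes. For Epyc Aqp4 cells 4 of 21 other G1/S genes rose and 1 fell, E2f5 (-0.88), a mostly repressive E2F, while 15 of 30 S phase and 20 of 20 G2/M genes rose. The median of the other G1/S genes was 0.93, 0.69 and 0.79 in these 3 groups, 0.54 in the Epyc Aqp4 cluster with genes at 0 control UMIs set to their limit, against 0.02, 0.02 and 0.07 for all genes. Of all genes tested in these 3 groups, 4.54%, 12.6% and 7.96% rose and 1.97%, 11.6% and 7.71% fell. In glia-like cells 0 of 18 other G1/S, 0 of 5 S phase and 0 of 3 G2/M genes were called, at 7.05% of all genes. In macrophage-like cells 0 of 19, 0 of 25 and 0 of 20 were called, at 0.568% of all genes. With so few calls over all genes, 0 calls there say little about these lists.

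Among the CDK inhibitor genes, Cdkn1a, the gene of p21, rose in glia-like cells, with 1757 and 1935 scaled CPM with Dox and 665 in the control (1.47, adjusted p 0.0192). It fell in the Epyc Aqp4 cluster, with 73.6 and 135 scaled CPM with Dox and 225 in the control (-1.11, adjusted p 0.0125). In the Vmo1 Otx2 cluster Cdkn2a, the gene of p16INK4A and p19ARF, was counted 52 and 294 times with Dox and 1 time in the control and rose, while Cdkn1c fell by 2.71 on the log2 scale, with 7.89 and 6.01 scaled CPM with Dox and 43.5 in the control. The difference in Cdkn1a between groups was not itself tested.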

How the data were processed

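The deposited files are UMI count matrices per gene and cell barcode, which the authors made with Cell Ranger 5.0 and STAR against mm10/GRCm38, per the submitters' processing notes, while the file headers name version 3.1.0. Seurat 3.2.2 is also named there. Kept barcodes had 200 genes or more and no more than 20% of UMIs from mitochondrial genes, no doublets were removed, and 4 cultures were pooled per library. The cells of all libraries were clustered with scanpy 1.11.5 (2000 variable genes without the members and cell cycle lists, 30 principal components, 15 neighbours, Leiden resolution 1). Cell type names required 3 or more markers of the type within a cluster's 25 top genes by fold.

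UMIs were summed per library and cell group and tested with edgeR 4.0.16 (TMM, filterByExpr, quasi-likelihood F test) across all genes in R 4.3.3, with Benjamini-Hochberg adjustment and a threshold of 0.05. DESeq2 1.42.0 was an alternative. The fits were tested on simulated data. Supporting cell-like, glia-like and macrophage-like cells met a minimum of 20 cells per library. The Vmo1 Otx2 and Epyc Aqp4 clusters, with 16 and 12 control cells, were added after seeing the data, with a minimum of 10 cells and 300000 UMIs. Alternatives chosen after seeing the data were the shared barcodes left out, the clusters joined with their cycling clusters, the fits over 5 groups and the control cell with most Ccnd1 left out.

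The members and gene lists were chosen with earlier results of these data known. Named genes are the 10 members, Myc and Notch1, up to 4 genes of each list past the test by smallest p, and the 3 genes whose profile is most like each member's. Intervals are exact at 95% and cover counting error only. A count of 0 was bounded at 3 UMIs.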

Additional observations from a re-analysis of the deposited data

How the results depend on the processing

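Of 880 single-gene values under alternatives, 770 kept their direction and side of the threshold or stayed within the replicate spread, 39 lost the threshold, 24 gained it, 46 moved and 1 that had been called changed sign. That one was Cdk6 in supporting cell-like cells, at -0.055 with the mean of per-cell CPM, against 3.13. Values not called also changed sign, among them Ccnd1 in supporting cell-like cells, at -0.37 with each library clustered alone, against 3.59, and Ccnd3 in macrophage-like cells, near 0. In all kept cells 5 members were called, and 1 after thinning every cell to 1000 UMIs. In supporting cell-like cells 3 were called, 1 other (Ccnd1) with DESeq2's Wald test, and 0 after thinning (none could be tested), without cells of little Malat1, with each library clustered alone and without all shared barcodes. In glia-like cells 0 were called, 3 with total count scaling (1 higher, 2 lower), and 1 each without a low-count filter, with the strict cell filter and with each library clustered alone. In the Vmo1 Otx2 cluster 4 were called, 2 with DESeq2 and 1 after thinning, namely Ccnd1, lower with Dox at -2.54 and not among the 4, of which none could then be tested. That thinned value includes the control cell with most Ccnd1. In the Epyc Aqp4 cluster 4 were called, 0 after thinning (Cdk4 at 0.10) and 7 when joined with its cycling cluster, where 2229 of all genes were called against 1734. For the difference between supporting cell-like and glia-like or macrophage-like cells 0 were called, and 2 in each contrast without a low-count filter. Cdk4 and Cdk6 in the Vmo1 Otx2 cluster were called in 12 of 12 alternatives tested, and Rb1 in 10 of 12 there and 8 of 11 in the Epyc Aqp4 cluster. Leaving out 1 Dox library leaves no residual degrees of freedom, so those values carry no test. Without Dox replicate 1 and without Dox replicate 2, supporting cell-like differences were 2.56 and 4.06 for Ccnd1, 2.44 and 3.49 for Cdk6, 1.77 and 1.67 for Cdk4, and 1.90 and 2.07 for Ccnd3, while Ccnd2 in glia-like cells was -0.56 without Dox replicate 1. With each library clustered alone, supporting cell-like and Epyc Aqp4 cells had 1 control group in common, of 37 cells and 793764 UMIs. The causes of these changes were not tested. Thinning leaves 461 genes tested in supporting cell-like cells and 1040 in the Epyc Aqp4 cluster.

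Over all genes, calls in supporting cell-like cells numbered 541, against 241 with DESeq2, 1177 with total count scaling, 981 without a filter, 215 without cells of little Malat1, 904 with the strict cell filter, 104 after thinning and 0 with all shared barcodes left out or each library clustered alone. Glia-like cells had 537, against 176 with DESeq2, 890 with total count scaling, 815 with each library clustered alone and 100 after thinning. Macrophage-like cells had 44, against 25 with DESeq2, 132 with total count scaling and 0 to 180 over all alternatives. The Vmo1 Otx2 cluster had 2647, against 855 with DESeq2, 1494 with the strict cell filter, 1738 with each library clustered alone and 179 after thinning. The Epyc Aqp4 cluster had 1734, against 492 with DESeq2, 728 with total count scaling, 1049 with clustering on all genes, 868 with each library clustered alone and 117 after thinning. With each library clustered alone, its control group was also that of the supporting cell-like cells. All kept cells had 2650, against 5143 without a filter and 969 after thinning. No paired analysis was possible because the single control library carries no replicate number. The comparisons without shared barcodes and at resolution 2 in both added clusters, and with the strict filter in the Epyc Aqp4 cluster, were not run, since too few control cells remained. With 1 control library, and with 2 to 6 control UMIs behind several members, control levels are imprecise.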

Other observations

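Profiles over 33 combinations of cluster and library, which share libraries and depth, were ranked by Spearman's rho with each member. For Ccnd1 the nearest genes were Oraov1 (0.86), which overlaps it, Wfdc3 (0.81) and Krt18 (0.81). Ccnd2 was nearest to Mfge8 (0.79), Cacna2d1 (0.76) and Cald1 (0.76). Ccnd3 was nearest to Ppm1m (0.70), Mgarp (0.65) and Ethe1 (0.63). Cdk4 was nearest to Ppia (0.91), Nudt21 (0.89) and Fkbp3 (0.88), and Cdk6 to Acer3 (0.73), Acsl5 (0.69) and Srsf7 (0.68). E2f1 was nearest to Brip1 (0.85), Rad51ap1 (0.84) and Ncapg2 (0.83), E2f2 to Mre11a (0.82), Chaf1b (0.76) and Mcm6 (0.75), Rbl1 to Timeless (0.82), Ubtf (0.80) and Hist1h2bn (0.79), and Rb1 to Abhd12 (0.77), Kcnj10 (0.73) and Gramd1b (0.70). Between members, rho was 0.70 for E2f1 with E2f2 and -0.58 for Cdk4 with Rb1.

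A control cell of the Vmo1 Otx2 cluster had 145 Ccnd1 UMIs among 3302 in all, which is 43913 CPM of that cell.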
